A study of Mus musculus with 12 samples.

Results

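The 10 genes described here encode interferon-induced guanylate-binding proteins (GBPs) and immunity-related GTPases (IRGs), and they were followed in the meninges of mice with colitis. They are the rows Gbp2, Gbp3, Gbp4, Gbp5, Gbp7, Irgm1, Irgm2, Igtp, Iigp1 and Tgtp2 of the deposited count table, chosen by symbol; the table holds 47747 genes, of which 18593 passed the filter on low counts, and all 10 passed it. Meninges were taken from 12 C57bl/6 mice, and stranded total RNA libraries, 1 per mouse, were sequenced. The DSS group, 6 mice, was given 2% dextran sulphate sodium, a chemical that injures the colon lining, in the drinking water for 5 days and then plain water, and was culled after 6 days; the labels do not say from when those 6 days run. The other 6 mice carry the label Control, with no further description of their treatment. Age and sex are not in the labels, both groups share the strain, and 1 label field names the colon as the source while the sample names and the extraction protocol name the meninges.

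Both families are induced by interferons, interferon gamma above all, and act inside the cell against vacuole-dwelling and cytosolic microbes. GBPs are large GTPases of the dynamin superfamily that bind and assemble on pathogen vacuoles and bacterial surfaces, where they help to break the membrane and expose bacterial lipopolysaccharide to caspase-11. IRGs fall into effectors with a GKS motif in the nucleotide-binding loop, which load onto pathogen vacuoles, and regulators with a GMS motif, which sit on the cell's own membranes and keep the effectors inactive there. Their promoters are known for GAS elements, through which interferon gamma acts, and for ISREs, bound by interferon regulatory factors. The meninges are the membranes around the brain and hold fibroblasts, blood vessels and many resident immune cells.

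The RefSeq promoter table (GRCm38.p6, 250 bases before to 50 after each start) has entries for 8 of the 10 genes, 9 promoters in all; Gbp4 and Iigp1 have none. They were searched on both strands for an ISRE core, a pair of GAAA with any 2 bases in between, and for the GAS TTCNNNGAA. Each of the 8 genes had an ISRE core, found in 8 of the 9 promoters (88.9%), where 3.44% of all 32851 promoters in the table hold one. A GAS was found in the promoters of 5 genes (Gbp5, Gbp7, Tgtp2, Igtp and Irgm2), where 8.30% of all promoters hold one, and all 5 had both motifs, a combination in 0.454% of all promoters. The stretches around the ISRE core are printed to show where the matches lie, and capitals mark ISRE cores and GAS matches. The GBP promoters carry the core on the opposite strand, so that it reads as a pair of TTTC, and windows of Gbp3, Gbp2 and Irgm1 were kept to 30 bases because longer ones overlap exons of GENCODE's gene models; those of Gbp2 and Irgm1 still do.
Gbp5 (chr3:142496739-142496808, plus strand): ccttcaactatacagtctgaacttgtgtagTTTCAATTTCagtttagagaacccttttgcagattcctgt
Gbp7 (chr3:142530226-142530295, plus strand): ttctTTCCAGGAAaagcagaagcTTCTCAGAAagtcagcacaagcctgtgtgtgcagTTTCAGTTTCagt
Gbp3 (chr3:142559992-142560021, plus strand): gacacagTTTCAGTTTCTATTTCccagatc
Gbp2 (chr3:142620594-142620623, plus strand): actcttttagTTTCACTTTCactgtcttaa
Irgm1 (chr11:48871428-48871457, minus strand): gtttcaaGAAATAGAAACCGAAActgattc
Tgtp2 (chr11:49064249-49064318, minus strand): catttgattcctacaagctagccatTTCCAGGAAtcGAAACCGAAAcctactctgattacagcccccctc
Igtp (chr11:58199486-58199555, plus strand): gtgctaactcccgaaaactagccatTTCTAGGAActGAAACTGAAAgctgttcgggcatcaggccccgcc
Irgm2 (chr11:58214877-58214946, plus strand): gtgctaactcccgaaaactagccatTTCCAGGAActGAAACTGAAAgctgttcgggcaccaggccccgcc

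In Tgtp2, Igtp and Irgm2 the GAS stands 2 bases before the ISRE core, and the printed stretches of Igtp and Irgm2 match at 68 of 70 bases. That joint pattern was chosen after the sequences were seen; it occurs in 5 of the 32851 promoters, those of Tgtp2, Igtp, Irgm2, Tgtp1 and Gm12185, and Tgtp1 is a near-copy of Tgtp2. The first base of the ISRE core lay 34 bases before the start in Igtp, 64 in Irgm2 and 70 in Tgtp2. Irgm1 and Gbp3 each hold a pair of overlapping cores, the first of them 30 and 45 bases before the start. Gbp7, Gbp2 and Gbp5 have the core 53, 59 and 165 bases before it, and in Gbp5 the GAS matches, at 245 and 52 bases before the start, fall outside the stretch shown. A match is a run of letters and was not tested for binding.

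The genes lie at 5 places of the mouse genome (GENCODE release M21, GRCm38), and all 10 are annotated as protein coding. Gbp5, Gbp7, Gbp3 and Gbp2 stand in a row within 144.0 kb of chromosome 3 (chr3:142493978-142638008), and Gbp4 stands in another GBP cluster on chromosome 5 (chr5:105115767-105139586). Irgm1 and Tgtp2 mark the ends of a 202.2 kb stretch of chromosome 11 (chr11:48861968-49064206). Igtp and Irgm2 adjoin each other further along the same chromosome (chr11:58199556-58222782), and Iigp1 is on chromosome 18 (chr18:60376027-60392634). Neighbours and copies can share reads, and how the authors treated such reads is not given in the sources used here. Of the 100-base windows of Tgtp2's transcripts, 76.8% occur identically in its neighbour Tgtp1, so the split of reads between that pair is uncertain. The same share was 10.0% for Gbp7 and at most 5.16% for the other 8 genes; Igtp and Irgm2 overlap over 162 exon bases, and Gbp4 overlaps Gbp8 over 61 and Gbp9 over 60.

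Mice are named by group and replicate number. Levels are counts per 1000000 (CPM) on library sizes scaled by TMM, a method that corrects for genes that take up much of a library. Libraries held 9312788 to 41869997 counts, and the difference in totals was within the spread of mice (exact permutation test, two-sided, p = 0.537). Ribosomal RNA features took 61.3% of the counts in Control 2 and 1.13% to 10.5% in the other 11 libraries, and DSS 2 stood apart in skeletal muscle markers (summed level 177 CPM, at most 14.1 in any other mouse). Both libraries were kept; without them together all 10 GTPase genes were again called. Fibroblast genes were abundant in every mouse, with a summed level of 11572 to 21426 CPM. Most of it came from the collagen genes Col1a1, Col1a2 and Col3a1 (means 5657, 5890 and 2127 CPM in controls). Colon epithelial markers summed to 4.80 to 12.8 CPM, with Cdx2 at 0 counts throughout. Tests are edgeR's quasi-likelihood test over all 18593 genes with Benjamini-Hochberg adjustment, a gene being called changed at an adjusted p under 0.05, and folds are DSS over Control with standard errors (SE) on the log2 scale.

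All 10 GTPase genes rose in the meninges of DSS mice, by 1.28-fold (Gbp2) to 1.70-fold (Gbp4), while 4.94% of all tested genes were called, 3.68% higher and 1.26% lower, and 9.77% were higher at an unadjusted p under 0.05. Their median log2 fold change was 0.61, beside -0.02 over all tested genes, with 0.42 for the 5 GBPs, 0.59 for the 3 GMS regulators and 0.67 for the GKS pair. In 4 of them, the IRG genes Irgm1, Irgm2, Igtp and Tgtp2, all 6 DSS mice lay above the highest control, which held for 2.23% of tested genes; in the other 6 genes 4 or 5 DSS mice did. The counts behind these values ran from 79 for Gbp5 in a single library to 3386 for Tgtp2. More cells that carry such a transcript and more transcript per cell cannot be told apart in bulk tissue.

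**Figure D1:**
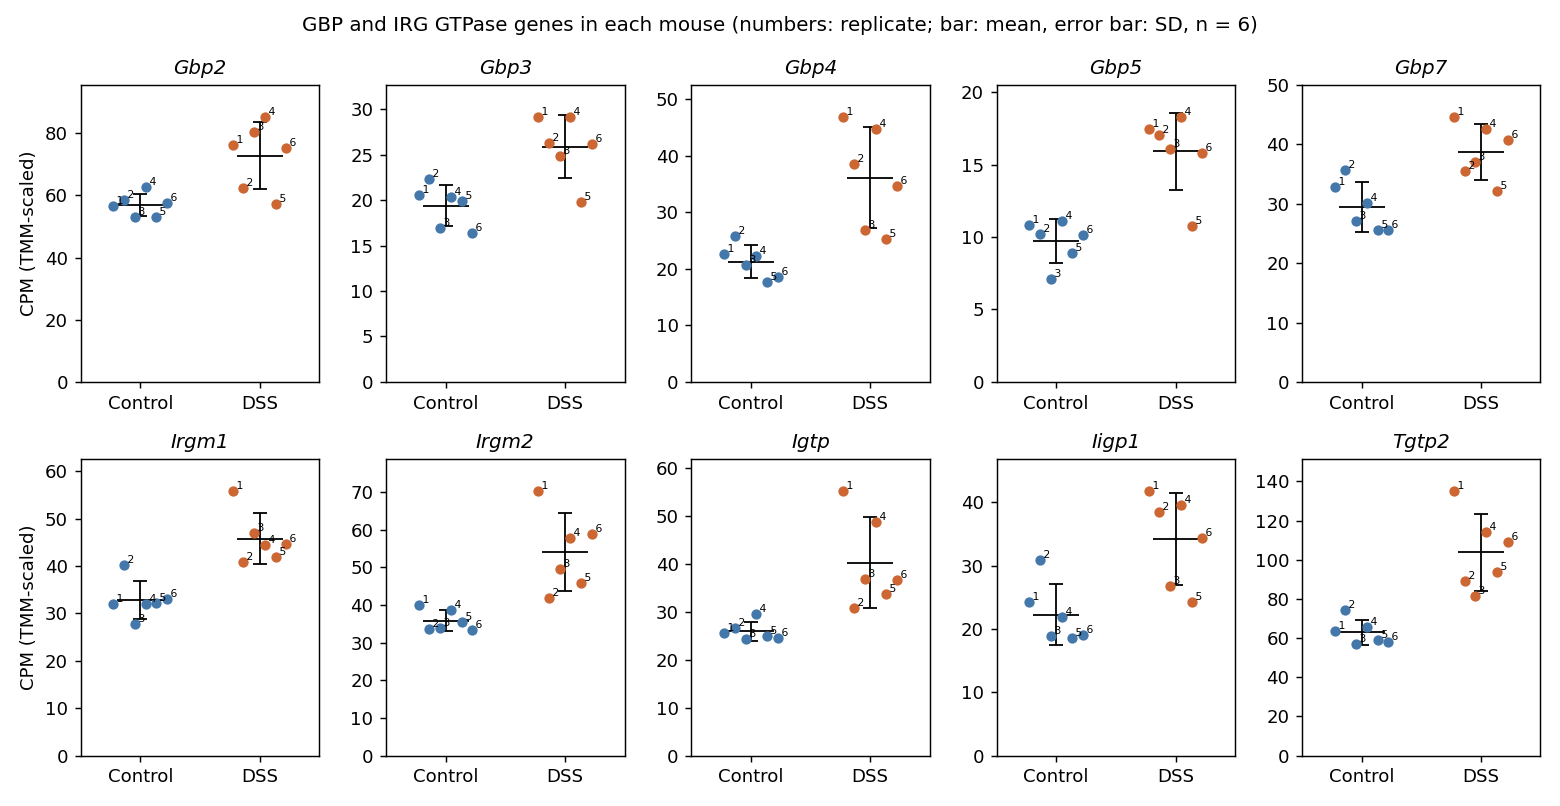
Level of each GTPase gene in each of the 12 mice, in TMM-scaled CPM from an axis that starts at 0; points are mice with their replicate number, and bars give the mean and SD of 6 mice. The groups do not overlap for Irgm1, Irgm2, Igtp and Tgtp2, and DSS 5 falls back to or near the control range for the 5 GBPs and Iigp1.

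Of the GMS regulators, Irgm1, which protects the cell's own organelles and mitochondria and supports autophagy, had 27.7 CPM in the lowest control, a control median of 32.1 and a highest control of 40.2. In DSS mice it ran from 40.9 over a median of 44.5 to 55.9, so the lowest DSS mouse stood just above the highest control. The mean rose from 32.8 ± 4.06 to 45.8 ± 5.41 CPM (SD, n = 6 each), a 1.4-fold rise (log2 0.48 ± 0.09 SE, adjusted p = 0.00839). Irgm2, a Golgi-associated regulator, had 33.5, 34.7 and 40.0 CPM as the lowest, median and highest control, against 41.8, 53.7 and 70.4 in DSS mice, again with no overlap. Its mean rose 1.51-fold, from 35.8 ± 2.80 to 54.1 ± 10.4 CPM (log2 0.59 ± 0.11 SE, adjusted p = 0.00711). Igtp, also called Irgm3 and found on the endoplasmic reticulum and lipid droplets, had a control range of 24.4 to 29.6 CPM around a median of 25.2, and a DSS range of 30.7 to 55.2 around 36.7. The 1.55-fold rise of Igtp, 25.9 ± 2.00 to 40.2 ± 9.55 CPM, was 0.64 ± 0.13 SE on the log2 scale (adjusted p = 0.0116). In all 3 regulators DSS 1 was the highest mouse and DSS 2 the lowest of its group, and the SD in CPM was larger among DSS mice. On the log2 scale Irgm1 ran from 4.80 to 5.33 in controls and from 5.36 to 5.81 in DSS mice. There its controls spread slightly more.

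The GKS effectors were Tgtp2 and Iigp1. Tgtp2, known at the protein level as Irgb6 and among the early effectors on Toxoplasma vacuoles, had 57.0, 61.4 and 74.5 CPM as the lowest, median and highest control and 81.3, 101 and 135 in DSS mice. The groups were apart, and the mean rose 1.65-fold from 62.9 ± 6.57 to 104 ± 19.7 CPM (SD, n = 6 each; log2 0.72 ± 0.12 SE, adjusted p = 0.00247), the smallest adjusted p of the 10 genes. Its near-copy Tgtp1 gave 60.3 ± 5.73 and 97.4 ± 18.4 CPM, and since the pair shares most of its sequence these are best read as 1 signal. Iigp1, the effector Irga6 that disrupts parasite vacuoles, ran from 18.6 over 20.5 to 30.9 CPM in controls and from 24.2 over 36.4 to 41.9 in DSS mice. Here the groups overlapped: Control 2 lay above DSS 3 and DSS 5. The mean of Iigp1 rose 1.54-fold, from 22.3 ± 4.74 to 34.2 ± 7.21 CPM (log2 0.62 ± 0.16 SE, adjusted p = 0.0347). Its call was lost without Control 3, 4, 5 or 6 or DSS 1, 4 or 6 (adjusted p up to 0.0853), while the log2 fold change stayed between 0.55 and 0.75.

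Among the GBPs, Gbp4 and Gbp5 showed the larger changes. Gbp4 had 17.6, 21.6 and 25.7 CPM as the lowest, median and highest control and 25.2, 36.6 and 46.9 in DSS mice, and of the DSS mice only DSS 5 lay within the control range. Its mean rose 1.70-fold from 21.3 ± 2.96 to 36.2 ± 9.00 CPM (SD, n = 6 each; log2 0.77 ± 0.15 SE, adjusted p = 0.0103). Gbp5, known for promoting inflammasome assembly, was at 7.10, 10.2 and 11.1 CPM in controls and 10.8, 16.6 and 18.3 in DSS mice. DSS 5, at 10.8 CPM, was within the control range of Gbp5 and far from the other DSS mice, which held 15.8 to 18.3. The mean of Gbp5 rose 1.63-fold from 9.72 ± 1.49 to 15.9 ± 2.67 CPM (log2 0.70 ± 0.13 SE, adjusted p = 0.00728).

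Gbp2, which restricts Toxoplasma and is prenylated at its C-terminus, ran from 53.0 over 57.1 to 62.7 CPM in controls and from 57.2 over 75.6 to 85.3 in DSS mice. DSS 2 and DSS 5 lay within the control range, and the mean rose 1.28-fold from 56.9 ± 3.65 to 72.7 ± 10.8 CPM (SD, n = 6 each; log2 0.35 ± 0.09 SE, adjusted p = 0.0410). Gbp3 had 16.4, 20.2 and 22.3 CPM as the lowest, median and highest control against 19.8, 26.2 and 29.2, with DSS 5 inside the control range. It rose 1.33-fold from 19.4 ± 2.28 to 25.9 ± 3.46 CPM (log2 0.42 ± 0.10 SE, adjusted p = 0.0336). Gbp7, linked to the phagocyte oxidase and autophagy proteins, was at 25.5, 28.7 and 35.7 CPM in controls and 32.1, 38.9 and 44.7 in DSS mice, of which DSS 2 and DSS 5 lay within the control range. Its mean rose 1.32-fold from 29.5 ± 4.20 to 38.8 ± 4.71 CPM (log2 0.40 ± 0.10 SE, adjusted p = 0.0404). These were the 3 smallest changes, and each call depended on single mice. Gbp2 was no longer called without Control 1, 3, 5 or 6 or DSS 1, 3, 4 or 6 (adjusted p up to 0.0996). Gbp3 was not called without Control 3, 5 or 6 or DSS 1, 4 or 6 (up to 0.0833), and Gbp7 without Control 3, 4, 5 or 6 or DSS 1, 3, 4 or 6 (up to 0.0977).

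**Figure D2:**
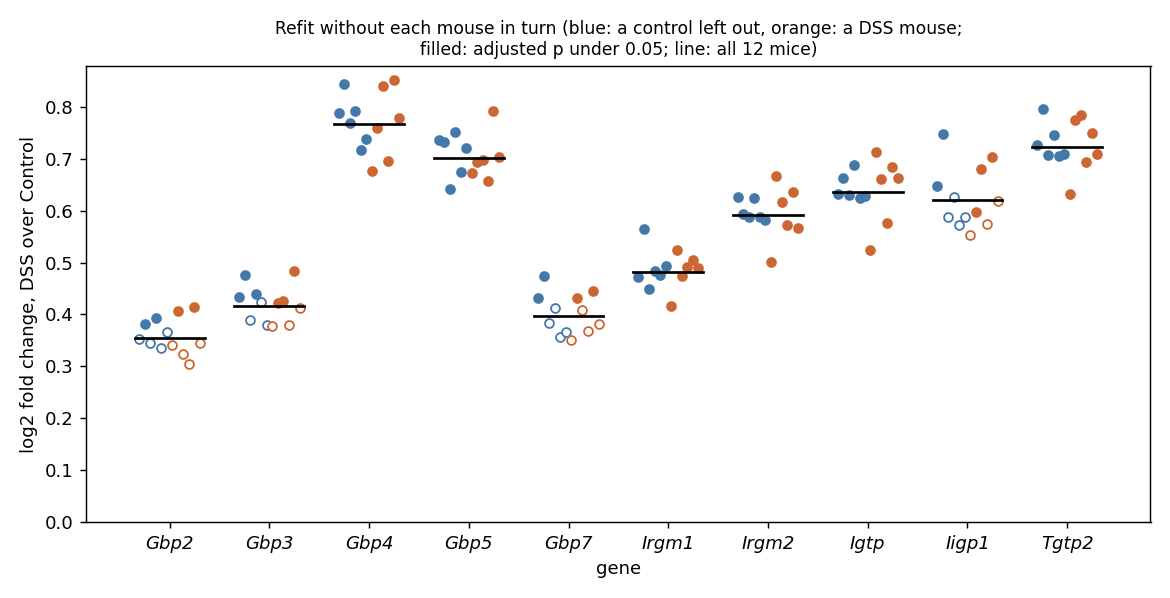
Log2 fold change (DSS over Control) of each GTPase gene when 1 mouse is left out, blue where a control and orange where a DSS mouse was left out; filled points were called at an adjusted p under 0.05, and the lines give the value over 12 mice. Gbp4, Gbp5, Irgm1, Irgm2, Igtp and Tgtp2 were called in each of the 12 refits, and all values lie above 0.

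With single mice left out, 6 to 10 of the 10 genes were called, and the 6 that kept their call in every refit were Gbp4, Gbp5, Irgm1, Irgm2, Igtp and Tgtp2. The smallest count, 6, came without Control 3, 5 or 6 or DSS 1, 4 or 6; 9 were called without Control 1, 8 without Control 4 or DSS 3, and 10 without Control 2, DSS 2 or DSS 5. Scaling by library size alone, without TMM, left 4 of the 10 called (Gbp4, Gbp5, Iigp1 and Tgtp2); that scaling moved the median of all genes from -0.02 to 0.14 and the median of the 10 genes to 0.77.

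Per kilobase of merged exon, which allows levels of different genes to be compared, Gbp2 and Tgtp2 were the most abundant in control meninges, at 22.6 and 21.4 CPM per kb, with overlapping ranges. Igtp (12.8), Irgm2 (9.71), then Gbp3, Irgm1 and Gbp7 (5.95, 5.65 and 5.25), Iigp1 (3.83), Gbp4 (2.84) and Gbp5 (1.47) followed on the same scale. Ranges over the 6 controls did not overlap between Tgtp2 and Igtp, Igtp and Irgm2, Irgm2 and Gbp3, or Gbp4 and Gbp5; all other neighbours in this order overlapped. In DSS mice Tgtp2 stood first at 35.3 CPM per kb with Gbp2 next at 28.9, their ranges overlapping, and the order of the other 8 was as in controls. Annotated exon length stands in for the isoforms used in this tissue, so small steps in the order carry little weight. The level and place of Tgtp2 are also uncertain, since 76.8% of its 100-base windows occur identically in Tgtp1.

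The genes also varied together among mice of the same group. DSS 1 was the highest DSS mouse for 7 genes and DSS 4 for Gbp2, Gbp3 and Gbp5; DSS 5 was the lowest for 6 (the 5 GBPs and Iigp1), DSS 2 for Irgm1, Irgm2 and Igtp, and DSS 3 for Tgtp2. After each group's mean was removed, the 45 pairwise Pearson correlations over 12 mice ran from 0.381 (Irgm2 with Iigp1) to 0.933 (Gbp4 with Iigp1), with a median of 0.628. Genes on different chromosomes were among the closest pairs, as with Gbp4 and Iigp1 or Gbp7 and Iigp1 (0.863), and the adjoining Igtp and Irgm2 stood at 0.852. These values share libraries and their scaling and are a description.

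**Figure D3:**
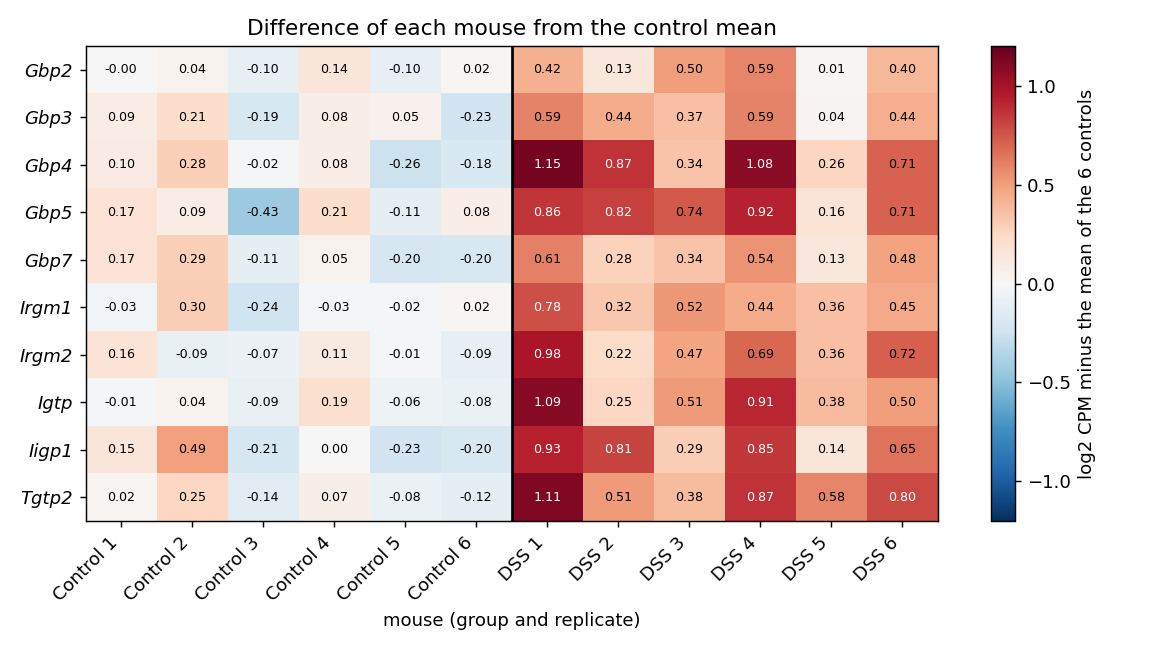
Difference of each mouse from the mean of the 6 controls, in log2 CPM, for the 10 GTPase genes (rows) in 12 mice (columns); red is above and blue below the control mean. DSS 1 is high in most rows, and DSS 5 is near the control mean in the GBP rows but not in Tgtp2.

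Whether some of the genes rose more than others was tested on the log2 ratio of each pair in each mouse, with exact two-sided permutation tests over mice, a comparison added after the values were seen. Of the 45 pairs, 0 passed an adjusted p of 0.05 and 12 had an unadjusted p under it; the smallest adjusted p was 0.0974. The ratio of Gbp2 to Gbp5 was lower in DSS mice by 0.36 and that of Gbp7 to Tgtp2 by 0.31 on the log2 scale, each at that adjusted p. The smallest p this test can give with 6 mice a group was 0.00216, so no single pair could pass alone after adjustment over 45. Whether the 10 genes differed in response was therefore not decided by this test.

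The same families hold further genes. Of the 18 others that could be tested, 7 rose, where 3.68% of all tested genes did, and 0 fell. Their median log2 fold change was 0.41. Those that rose were the GBP gene Gbp9 (0.43, adjusted p = 0.0448), the IRG effector genes Tgtp1 (0.69, 0.00298) and Gm12250 (Irgb10, 0.96, 0.00643), and the very large inducible GTPase genes Gvin1 (0.84, 0.00297), Gm4070 (0.81, 0.00432), Gm8989 (0.96, 0.00360) and Gm8995 (0.72, 0.00652), each with its adjusted p from edgeR's quasi-likelihood test. Gbp9 lost its call without Control 3, 4, 5 or 6 or DSS 1, 2, 3, 4 or 6 (adjusted p up to 0.108), while the other 6 kept theirs in all 12 refits. Of the 100-base windows of Gvin1 and Gm4070, 97.8% and 95.6% occur in other genes, mostly in each other. They too are therefore not separate measurements. Of the windows of Gm8989, 63.5% occur in other genes, mostly in Gm8979. GENCODE annotates Gm12250 as a processed pseudogene, Gm8989 as an unprocessed pseudogene and Gm8995 as a transcribed unprocessed pseudogene. Gm12250 is scarce, at 3.11 ± 0.68 CPM in controls and 6.08 ± 1.25 in DSS mice, whereas Gvin1 went from 128 ± 22.1 to 229 ± 41.7 CPM (SD, n = 6 each).

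Not every relative moved. Gbp6, at 99.3 ± 20.6 CPM in controls and 105 ± 14.9 in DSS mice the GBP gene with the most counts among these families, had a log2 fold change of 0.07 with a 95% interval from -0.21 to 0.36 (adjusted p = 0.836). Its neighbour Gbp10 had 0.06 (interval -0.26 to 0.38, adjusted p = 0.887), Gbp11 0.13 (-0.28 to 0.55) and Irgq, a distant relative outside the interferon-induced group, -0.04 (-0.19 to 0.11). Gbp6 and Gbp10 share 64.5% and 73.5% of their windows with other genes, so their counts are uncertain. In tests of the ratio in each mouse, over 180 pairs of 1 of the 10 genes with 1 of these 18, 29 passed an adjusted p of 0.05 (exact permutation, added after the values were seen), in 18 of which the ratio was higher in DSS mice and in 11 lower. Of the 18, 9 were pairs with Irgq, 3 each with Gbp6 and Gbp10, and 1 each with 9930111J21Rik1, 9930111J21Rik2 and Gm5431. The 11 set Gbp2, Gbp3 or Gbp7 against Gvin1, Gm4070, Gm8989, Gm8995 or Gm12250, as with Gbp7 to Gm8989, at -0.58 ± 0.13 SE on the log2 scale (exact permutation p = 0.00216, adjusted 0.0324). The ratio of Gbp4 to Gbp6 was higher in DSS mice by 0.65 ± 0.16 SE on the log2 scale (exact permutation p = 0.00433, adjusted 0.0325), Gbp5 to Gbp6 by 0.62 (0.0324) and Iigp1 to Gbp6 by 0.53 (0.0403). Gbp2b was scarce and uneven, at 0.57 ± 0.58 and 1.29 ± 1.79 CPM, with an interval from -0.30 to 2.99. The remaining 6 uncalled genes had values of 0.57 for Gbp8 (adjusted p = 0.0741), 0.38 for 9930111J21Rik2 (0.0796), 0.36 for Gm4951 (0.119), 0.33 for Gm5431, 0.30 for 9930111J21Rik1 (0.10) and 0.29 for F830016B08Rik, while Irgc1 had 0 to 3 counts a library and was not tested.

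**Figure D4:**
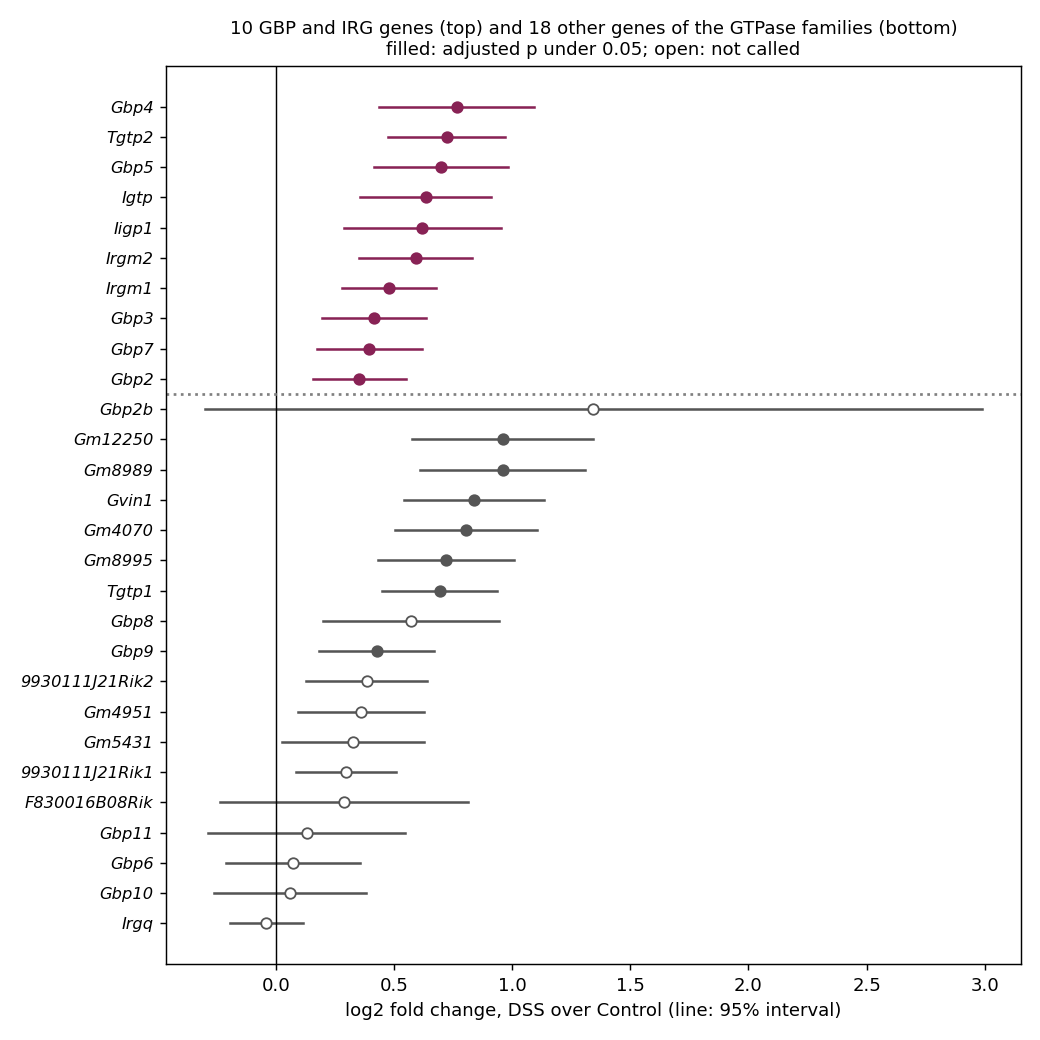
Log2 fold change (DSS over Control) with its 95% interval for the 10 GTPase genes, above the dotted line, and for 18 other genes of the GTPase families below it; filled points were called at an adjusted p under 0.05. Gbp6, Gbp10, Gbp11 and Irgq sit near 0, while Gvin1, Gm12250 and Gm8989 lie beyond most of the 10 genes.

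The nearest tested genes outside the clusters lay from 9.8 kb (Trim7) to 840.0 kb (Chsy3) away. Over all tested genes 4.94% were called, 3.68% higher, so most neighbours of any gene would be uncalled. Of the 20 nearest tested protein-coding genes outside the 5 stretches, taken up to 2 to a side and outside the family lists, 2 rose and 18 were not called. Those 2 were Ifi47, 12.4 kb beyond Tgtp2, at a log2 fold change of 0.59 (edgeR adjusted p = 0.00321; 19.7 ± 1.72 to 29.7 ± 4.41 CPM), which is itself an IRG effector gene missing from the family list, and 4930438A08Rik, 52.0 kb beyond Irgm2 (3.61 ± 0.41 SE, adjusted p = 0.000281; 0.16 ± 0.10 to 1.91 ± 0.73 CPM). Of 3 further genes that lie between Irgm1 and Tgtp2, Psme2b (0.04) and Olfr56 (0.52, adjusted p = 0.106) were not called. Gm12185 rose (0.75, adjusted p = 0.00360). It is another IRG gene missing from the family list and overlaps Tgtp1 over 223 exon bases. Among the 18 uncalled neighbours was the scarce Gm4841 (0.39, edgeR adjusted p = 0.527). It lies on chromosome 18 between the listed family genes Gm4951 and F830016B08Rik, so the uncalled neighbours may not all be unrelated to the families.

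Interferon gamma itself was hardly sequenced: Ifng had 0 to 4 counts a library, 9 over all controls and 5 over all DSS mice, too few to test. Over all tested genes 3.68% rose and 1.26% fell, with a median log2 fold change of -0.02. Of the receptor and signalling genes downstream, 3 of 9 tested rose and 0 fell, with a median of 0.18. Among them were Irf1, an interferon-induced transcription factor (46.9 ± 4.37 to 66.6 ± 8.77 CPM, 1.42-fold, edgeR adjusted p = 0.00549), and the feedback inhibitor Socs3 (log2 0.67, 0.00224). The receptor chain Ifngr1 had 0.18 (95% interval 0.003 to 0.35, adjusted p = 0.252) and Ifngr2 0.10 (-0.12 to 0.32, 0.692), neither called. Socs1, another feedback inhibitor of that list, had 0.005 (-0.33 to 0.34, edgeR adjusted p = 0.994). Jak2 had 0.01 (-0.17 to 0.19, edgeR adjusted p = 0.972), and it was not called either. Of type I and III interferon genes, Ifnb1, Ifna2 and Ifnl2 had at most 2 counts in any library and Ifna4 and Ifnl3 had 0, while 3 of 9 tested signalling genes rose: Irf7 (0.64, adjusted p = 0.00653), the receptor chain Ifnar2 (0.31, 0.0217) and Irf9 (0.30, 0.0354). Ifnar2 lost its call without DSS 4 (adjusted p = 0.0521), and Irf9 without Control 1, 3, 4 or 5 or DSS 1, 3, 4 or 6 (up to 0.0818). In each of these lists 5 genes rose without DSS 2, and in the type I and III list 1 did without DSS 4. With library-size scaling in place of TMM, every call of both lists was lost in edgeR (Irf1 adjusted p = 0.220, Socs3 0.0666, Irf7 0.0513, Ifnar2 0.682, Irf9 0.612).

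Other known targets of interferon gamma rose in 7 of 18 cases and fell in 0, with a median log2 fold change of 0.41. Of all tested genes 3.68% rose and 1.26% fell. Ciita, the master regulator of MHC class II genes, rose by 0.76 (edgeR adjusted p = 0.00891) and Nlrc5, its counterpart for MHC class I, by 0.79 (0.0261). Upp1 rose by 1.19 (edgeR adjusted p = 0.0114) and the peptide transporter gene Tap1 by 0.47 (0.0123). Psmb8, Cd274 and Fcgr1 made up the 7 (adjusted p 0.0316, 0.0347 and 0.0358), and each of these calls was lost without DSS 1, 4 or 6 and without some single controls, at adjusted p up to 0.0866. The chemokine genes Cxcl9 (0.31, adjusted p = 0.762) and Cxcl10 (0.80, 0.226) were not called. The call of Nlrc5 was lost without Control 5 or 6 or DSS 1, 4 or 6 (adjusted p up to 0.0652), and the count fell to 4 without Control 3 or 5, to 3 without DSS 1, 4 or 6, and to 2 with library-size scaling without TMM. Antiviral OAS, IFIT and MX genes, which mark type I interferon most of all but answer to interferon gamma too, rose in 6 of 17 cases and fell in 0 (median 0.47), among them Oas3 at 1.30, Oas2 at 1.08, Oas1g at 0.86 and Oas1a at 0.84. The OAS, IFIT and MX promoters held an ISRE core in 10 of 14 and a GAS in 2 of 14.

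Genes through which GBPs and IRGs work moved in part. The ubiquitin-like conjugation genes that help to place them on vacuoles had 0 of 13 called in either direction by edgeR (2 higher and 3 lower at an unadjusted p under 0.05), with a median of -0.10; Atg5 was at -0.15 ± 0.08 SE (adjusted p = 0.363), and the count became 1 without DSS 2 or 5. The 5 genes of CaaX prenylation, the lipid attachment that some GBPs need, had 0 called and 0 at an unadjusted p under 0.05. Over all 18593 tested genes 4.94% were called, 3.68% higher and 1.26% lower. At an unadjusted edgeR p under 0.05, 1816 of them were higher and 1709 lower. With so few genes called anywhere, 0 calls in such short lists says little about them. Inflammasome genes rose in 3 of 11 cases and fell in 0: Casp4, the gene of mouse caspase-11 (3.27 ± 0.71 to 4.88 ± 0.39 CPM, log2 0.57, edgeR adjusted p = 0.0384), the pore former Gsdmd (0.40, 0.0283) and Il1b (1.54, 0.000531). Casp4 lost its call without Control 3, 4 or 5 or DSS 1, 3, 4 or 6 (adjusted p up to 0.0895) and Gsdmd without Control 1 or 3 or DSS 3, 4 or 6 (up to 0.0663). The inflammasome count was 1 without Control 3 or DSS 3, 4 or 6, it was 6 without DSS 2, and 1 with library-size scaling without TMM.

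**Figure D5:**
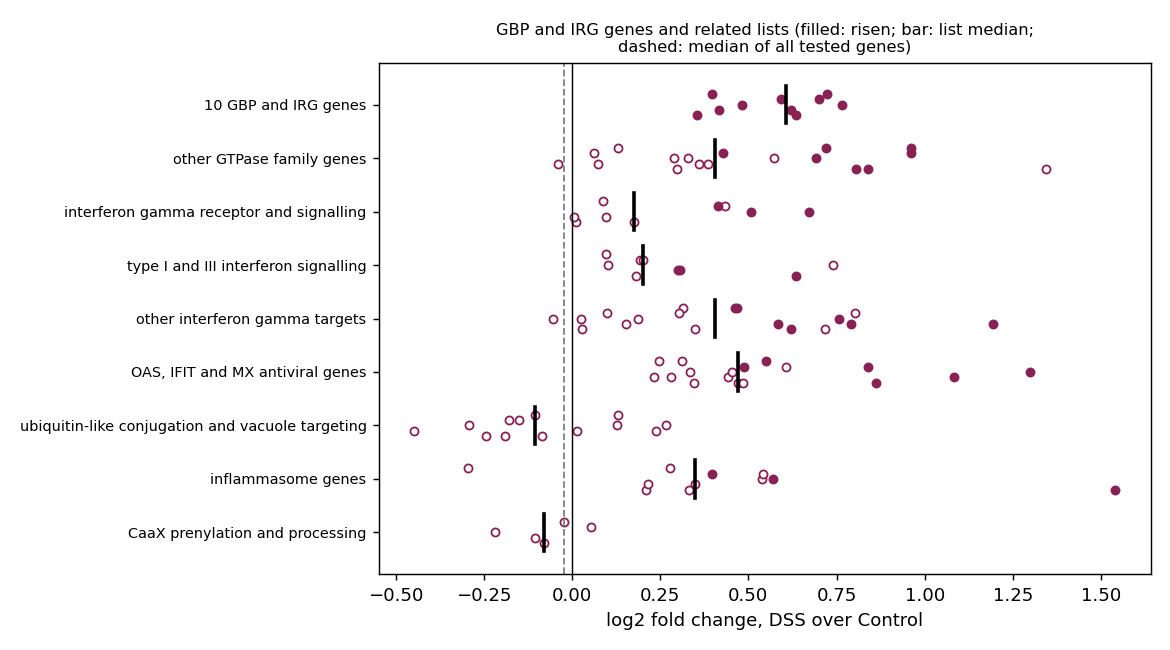
Log2 fold change (DSS over Control) of every tested gene, by list; filled points were called higher at an adjusted p under 0.05, black bars are list medians and the dashed line is the median of all tested genes. The 10 GTPase genes lie between 0.35 and 0.77, and the conjugation and CaaX lists lie around 0 with no filled point.

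Motif content and calls were set side by side over tested genes outside the 10, as a description. Those genes still include relatives, copies and genes of the lists above. Tgtp1, Gm12250, Gm12185 and Oas1a, for instance, hold both motifs and rose. Of 461 genes with an ISRE core in a RefSeq promoter, 48 (10.4%) rose; of 1000 with a GAS, 61 (6.10%) did; of 69 with both, 11 (15.9%); and of 10506 with neither, 384 (3.66%).

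Some markers of immune cells were higher in DSS mice as well. Of all tested genes 3.68% rose and 1.26% fell. All 12 neutrophil markers rose, with a summed level of 69.1 to 202 CPM in controls and 263 to 1408 in DSS mice, as did 5 of 8 classical monocyte markers (579 to 783 against 682 to 1025) and 3 of 11 border-associated macrophage markers (902 to 1127 against 855 to 1738). The macrophage markers called were C1qb, C1qc and Adgre1, while Mrc1, Cd163, Lyve1, Pf4, Ms4a7, Cbr2, C1qa and Csf1r were not. Dendritic cell markers had 1 of 9 called (H2-Aa, summed level 966 to 1262 against 1021 to 1838 CPM). Most of that sum came from H2-Aa, H2-Ab1 and Cd74 (means 406, 321 and 788 CPM in DSS mice). Flt3, Zbtb46, Xcr1, Clec9a and Cd209a had log2 fold changes from -0.10 to 0.09 and Itgax 0.56, all uncalled. Endothelial markers had 1 of 10 called (Ly6c1, 1006 to 1402 against 1060 to 1575). Markers of T, NK and innate lymphoid cells, the usual makers of interferon gamma, had 0 of 13 called by edgeR (1 at an unadjusted p under 0.05) and summed to 16.4 to 27.2 CPM in controls and 19.3 to 27.3 in DSS mice; the T cell genes Cd3e, Cd3d and Cd3g had 2 to 75 counts a library. The lowest DSS mouse was DSS 3 for the summed neutrophil and monocyte markers and for Tgtp2. It was DSS 2 for macrophage, dendritic cell, fibroblast and bone markers and for Irgm1, Irgm2 and Igtp. DSS 5 was lowest for endothelial, lymphoid and B cell markers and for the 5 GBPs and Iigp1. The highest DSS mouse was DSS 6 for neutrophil markers and DSS 4 for monocyte, macrophage, endothelial and fibroblast markers. It was DSS 3 for dendritic cell and lymphoid markers. Among the 10 GTPase genes it was DSS 1 for 7 and DSS 4 for Gbp2, Gbp3 and Gbp5. The part of these cells in the rise of the GTPase genes was not tested.

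Among the 10 expressed genes whose variation among mice was most like the mean of the GTPase genes, once group means were removed, were Parp14 (Pearson r = 0.887), Baz1b (0.877), Ifit2 (0.867), Gvin1 (0.858), Slfn5 (0.856), Rnf213 (0.856), Gpr182 (0.852), Acvrl1 (0.850) and Gm4070 (0.837), out of 14407 candidates with a median r of -0.01. They were ranked over 12 mice that share libraries and scaling. Of these, Parp14 (log2 fold change 0.43, edgeR adjusted p = 0.0410), Gvin1, Slfn5 (0.31, 0.0483), Rnf213 (0.50, 0.0202) and Gm4070 rose in DSS mice, and Baz1b, Ifit2, Gpr182 and Acvrl1 were not called.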

How the data were processed

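Total RNA from the meninges of 12 mice was sequenced from stranded libraries, per the labels' protocols. Per the submitters' processing notes, CASAVA, FastQC, Trim Galore, HISAT2 and featureCounts were used with mm10; for their versions, the annotation, the strand setting and the handling of multiply mapped reads the sources used here give nothing. The first deposited table holds raw counts per gene symbol. The other deposited table holds a normalized signal, in which every mouse's counts are divided by its median-of-ratios size factor; it served only as an alternative. Columns were matched to mice by their heading, which is each sample's description label, and 0 columns belonged to no sample.

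Counts were tested with edgeR 4.0.16 in R 4.3.3 (filterByExpr, minimum count 10 and minimum total 15, TMM factors, quasi-likelihood F-test, two-sided, 6 against 6 mice, no covariates), adjusted over 18593 genes and called under 0.05. Intervals are 95%. The script was tested on simulated data. CPM values carry no prior; log2 CPM used a prior count of 2. Single values and ratios were tested by exact permutation over 924 splits (smallest p 0.00216). Exon lengths, shared 100-base windows and overlaps come from GENCODE M21, in which 45323 of 47747 symbols (94.92%) matched; promoters are RefSeq's.

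The genes, the pathway lists and the tests were chosen with earlier results of these data known. Named are all 10 genes, the other family genes that passed the filter, up to 4 called genes of smallest p per list (Ifng, Ifngr1, Ifngr2, Irf1, Casp4 and Atg5 always) and the 10 genes of closest variation among genes whose mean log2 CPM is 1 or more; other genes named were picked after their values were seen. Alternatives were DESeq2 1.42.0 size factors and Wald test, no TMM, limma 3.58.1 (voom with quality weights, and trend on the log2 of that signal plus 1), other filters, a threshold of 0.1, the replicate block, and omitted mice. Each library is 1 mouse; counting error is smaller than the spread of mice at these counts. Proteins were not analysed here. Of the genes this rule names, 1 is not reported here, though it is counted in its list.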

Additional observations from a re-analysis of the deposited data

Results flagged for a closer look

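Within a group of 6 mice, a mouse was listed where its gap to the nearest other, as a share of the group's range, exceeded Dixon's 95% critical value for 6 samples, which chance meets in about 1 group of 20. Of 56 groups, 28 genes in 2 groups each, 7 were listed. Gbp5 was low in DSS 5, at 10.8 CPM against 15.8 to 18.3 in the other DSS mice. The same mouse was low for Gbp6, at 76.2 CPM against 103 to 118, and for 9930111J21Rik1, at 54.8 against 73.0 to 83.2. Gbp2b was high in Control 3, at 1.71 CPM against 0.168 to 0.581, and in DSS 6, at 4.89 against 0.140 to 0.954. Gbp11 was high in Control 2, the library rich in ribosomal RNA, at 10.1 CPM against 4.22 to 5.91. Gm5431 was low in Control 3, the library with the fewest counts, at 10.4 CPM against 15.7 to 18.6.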

How the results depend on the processing

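The direction of all 10 GTPase genes held in all 22 alternatives. All 10 were called with DESeq2 size factors, the DESeq2 Wald test, limma-voom, limma-trend, a filter of 1 CPM in 6 libraries, a threshold of 0.1, and without Control 2 and DSS 2 together. Without a count filter 9 were called (Gbp2 was lost), and 9 without DSS 5 and DSS 1 together, an alternative chosen after seeing the data (Gbp7 was lost). Scaling by library size without TMM gave 4 of the 10 and 414 changed genes in place of 919, and the share of calls that were higher moved from 74.4% to 87.7%. The DESeq2 Wald test called 1554 genes and the threshold of 0.1 called 1641. Leaving out single mice gave 6 to 10 of the 10 genes and 538 to 1379 changed genes, with 608 without Control 5, 1379 without DSS 2, 559 without DSS 4 and 538 without DSS 6; the causes were not tested. With the replicate number as a block, 8 of the 10 were called (Gbp2 and Gbp3 were lost) and 708 genes changed. The numbers do not show a pairing: same-numbered mice correlated at -0.189 to 0.154 in their deviations from the group means, 1 of 6 over 0.1 and 0 of 6 best with its own number. Scarce genes (Ifng, Gbp2b) are limited by depth, and copies such as Tgtp1 and Tgtp2 by shared reads.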
